A study of Mus musculus with 2 samples.

Results

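The genes of 10 secreted factors that act on microglia and in neuroinflammation were followed, Csf1, Il34, Tgfb1, Tgfb2, Tgfb3, Il33, Il18, Il1a, Il1b and Tnf. They were taken by symbol from the gene table and both transcript tables of each library, and each symbol matched 1 of the 55536 annotated genes. The data were total RNA-seq of hippocampus from 5xFAD/CAST animals, which were male adults of 8 to 10 months, in 2 libraries of this 1 group. The labels describe a cross of 5xFAD with CAST. The 5xFAD line carries human transgenes with familial Alzheimer mutations under a neuronal Thy1 promoter, and CAST is a wild-derived strain whose alleles differ from the mm10 reference, the effect of which on these values was not tested. The labels number the libraries as biological replicates 1 and 2 but give both the same donor identifier. Whether they came from separate animals is not stated, so each SD gives the spread of these samples alone, be it technical or not, and each p-value sets a difference against counting error. Mice without the transgenes were not analysed here, so levels are described and no condition is compared.

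CSF-1 and IL-34 are the ligands of CSF1R, the receptor tyrosine kinase on which microglia depend for survival. The TGF-betas are secreted in a latent complex and, once freed, signal through TGFBR2 and TGFBR1 to SMAD proteins, and TGF-beta 1 is known for keeping microglia in their homeostatic state. IL-1 alpha, IL-1 beta, IL-18 and IL-33 belong to the IL-1 family and signal through MyD88. IL-1 beta and IL-18 are made as precursors that caspase-1 cleaves in inflammasomes, and IL-33 is a nuclear protein that is released as an alarm signal. TNF is a membrane-bound cytokine that ADAM17 sheds and that acts on TNFR1 and TNFR2.

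Expected counts totalled 26128897 in replicate 1 and 28689423 in replicate 2, and 1 count equalled 0.0383 and 0.0349 CPM. Markers of the tissue and of neighbouring regions were examined. All 8 markers of hippocampal subfields reached TPM of 1 (abundance per length, scaled to the same total in each library) in both libraries, with a median of 34.5 ± 3.84 TPM (SD, n = 2). So did 6 of 7 striatal genes, 3 of 6 choroid plexus genes and 60.4% of 22028 protein-coding genes. Reaching this threshold therefore does not tell hippocampus from its neighbours. Markers of neighbouring regions differed between the libraries, since the summed TPM of 6 choroid plexus genes was 1189 in replicate 1 and 182 in replicate 2, and that of 7 striatal genes was 158 and 63.2. Microglial markers were expressed, with all 10 homeostatic genes and all 12 disease-associated genes at TPM of 1 or more in both libraries. The share of all protein-coding genes there was the same 60.4%. Of 5 blood leukocyte markers, 0 reached TPM of 1 in both libraries. In bulk RNA, fewer cells of a type and less RNA per cell cannot be told apart.

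Transcripts of Csf1, Il18 and Il33 differ at splice junctions that change the encoded protein, and 2 transcripts of Il34 share one. These junctions are shown because the transcripts that hold them are among those whose shares are given below. Some of those shares concern differences elsewhere, such as the first exon of Il33-201 and Il33-202. Each line gives the last 30 bases before a junction in lower case and the first 30 bases after it in capitals, from the GENCODE M21 transcript sequences on mm10. In Csf1 the junction starts at the same exon end and lands at chromosome 3 position 107749169 in Csf1-201, or at 107748284 in Csf1-202, which leaves out 885 coding bases or 295 codons.
Csf1-201: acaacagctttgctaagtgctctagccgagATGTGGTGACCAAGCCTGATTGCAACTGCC
Csf1-202: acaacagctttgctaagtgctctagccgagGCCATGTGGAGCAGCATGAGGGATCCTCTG
In Il18 position 50577892 of chromosome 9 is joined to 50579287 in Il18-204 and to 50581490 in Il18-203, which leaves out 134 bases and so shifts the reading frame.
Il18-204: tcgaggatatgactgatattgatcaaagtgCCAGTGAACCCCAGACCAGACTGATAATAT
Il18-203: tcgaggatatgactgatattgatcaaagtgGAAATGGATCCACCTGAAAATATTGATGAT
In Il33 position 29954668 of chromosome 19 is joined to 29955201 in Il33-202 and to 29956901 in Il33-205, which leaves out 51 bases or 17 codons.
Il33-202: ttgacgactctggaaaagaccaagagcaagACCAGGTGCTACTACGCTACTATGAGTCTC
Il33-205: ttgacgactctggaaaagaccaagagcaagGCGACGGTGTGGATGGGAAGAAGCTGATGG
In Il34 the noncoding Il34-205 and the coding Il34-201 share the junction from 110742644 to 110742448 on chromosome 8, so a read across it fits both.
Il34-201 and Il34-205: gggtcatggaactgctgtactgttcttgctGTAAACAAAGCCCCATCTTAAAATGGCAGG

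Il33 was the highest of the 10 genes, the CSF1R ligands came next, and Il1a, Il1b and Tnf lay below TPM of 1 in both libraries. In the alignment-based table the order by mean TPM was Il33, Il34, Csf1, Il18, Tgfb1, Tgfb2, Tgfb3, Il1a, Il1b and Tnf. Of the 9 neighbouring pairs in this order, 6 were separate in that the lower library of the higher gene lay above the higher library of the lower gene. The pairs Il18 and Tgfb1, Tgfb1 and Tgfb2, and Il1b and Tnf overlapped. Part of this depended on the table. Alignment-free means were 14.1 TPM for Tgfb2, 13.5 TPM for Il18 and 10.8 TPM for Tgfb1. Tgfb1, at 11.5 and 10.1 alignment-free TPM, overlapped there with neither Il18 (13.3 and 13.7) nor Tgfb2 (12.2 and 15.9). At TPM of 1 or more in both libraries stood 7 of the 10 genes, against 60.4% of 22028 protein-coding genes. The median over all 10 genes was 11.6 TPM in replicate 1 and 10.7 TPM in replicate 2. Of the 10 genes, 6 are overlapped by 11 other annotated genes, all on the opposite strand.

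**Figure D1:**
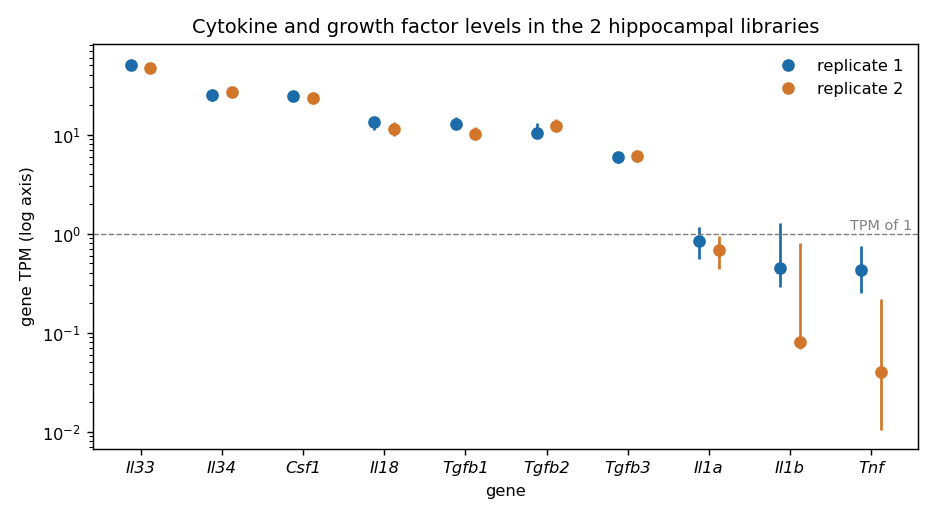
Gene TPM on a log axis for the 10 genes in order of mean level, with 1 point per library (blue, replicate 1; orange, replicate 2) and the deposited lower and upper credibility bounds as vertical lines. Il33 lies highest at 50.2 and 47.2 TPM, and Il1a, Il1b and Tnf lie under the dashed line at TPM of 1.

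The CSF1R ligands Csf1 and Il34 stood at like gene levels. Csf1 (chromosome 3, 107741048 to 107760469, minus strand, mm10) had 24.4 TPM from 1391 expected counts in replicate 1 and 23.4 TPM from 1433 in replicate 2, or 23.9 ± 0.665 TPM (SD, n = 2). Il34 (chromosome 8, 110741829 to 110805924, minus strand), which in the brain is known mainly from neurons, had 25.3 TPM from 513 counts and 27 TPM from 581 counts, or 26.1 ± 1.23 TPM. Il34 lay above Csf1 in both libraries and the gene TPM values did not overlap, but the log2 difference of Csf1 over Il34 was small, at -0.05 in replicate 1 and -0.20 in replicate 2. The deposited credibility bounds of the 2 genes did overlap. They were 22.5 to 27.6 for Csf1 and 22 to 28 for Il34 in replicate 1, and 21.7 to 26.1 and 23.8 to 29.8 in replicate 2. The order of the 2 genes depended on which transcripts were counted. With protein-coding transcripts alone, Csf1 kept 22.7 ± 0.375 TPM and Il34 13.7 ± 0.53 TPM, and the log2 difference became 0.72. With gene counts divided by the longest coding transcript, Csf1 had 12.8 and 12 and Il34 had 11 and 11.3 CPM per kilobase in replicates 1 and 2, a log2 difference of 0.15.

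**Figure D2:**
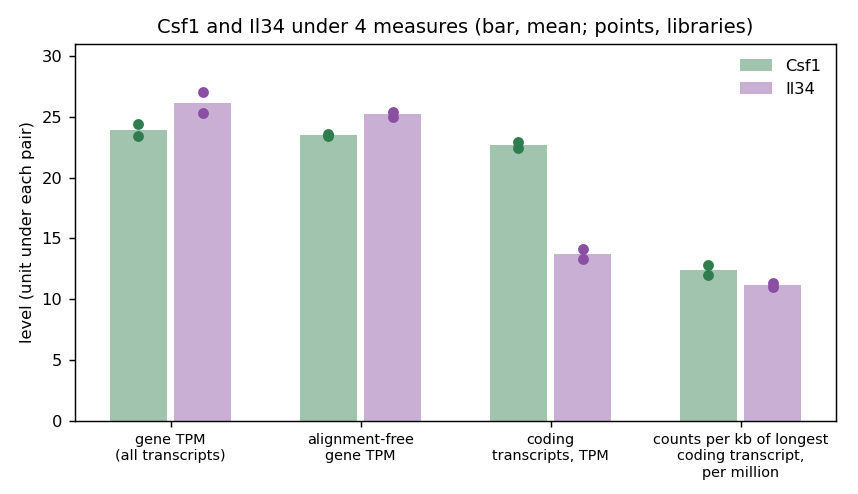
Levels of Csf1 (green) and Il34 (purple) by 4 measures whose units stand under each pair, with bars for the mean and points for the 2 libraries. Il34 is slightly the higher in gene TPM of either table, and Csf1 is the higher among coding transcripts, at 22.7 against 13.7 TPM.

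The noncoding share of Il34, 47.3% and 48% of its TPM, was nearly all 1 model. Il34-205 is an annotated processed transcript of 675 bases in 2 exons at the 3′ end of the gene, and 664 of its bases, or 98.4%, are also exon of the coding Il34-201, including 222 coding bases. The other 11 bases are its own. It was assigned 45.2% and 46.8% of the gene's TPM in the alignment-based table and 37.8% and 36.7% in the alignment-free table. Il34-201, which encodes the full protein of 235 codons, was assigned 45% and 51% in the alignment-based table and 49.3% and 55.8% in the alignment-free table.

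Csf1 was led by Csf1-201 in both libraries of both tables, with 55.1 ± 1.66% (SD, n = 2) of the gene's TPM from alignments and 61.8 ± 2.39% without. Csf1-201 and Csf1-203 carry the same coding length of 552 codons, which is the form that is secreted after cleavage and can carry sugar chains, and Csf1-203 held 13.9 ± 2.3% and 10.5 ± 2%. The short Csf1-202 of 257 codons, which lacks the 295 codons at the printed junction, took 15 ± 4.79% in the alignment-based table but 0.556 ± 0.787% in the alignment-free table. All 3058 of its exon bases also belong to Csf1-201, so no base is particular to it apart from the junction. An incomplete model, Csf1-205, held 6.81 ± 0.225% and 12.3 ± 0.681%.

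The receptor of both ligands stood well above them. Csf1r had 106 TPM in replicate 1 and 101 TPM in replicate 2, or 103 ± 3.32 TPM (SD, n = 2). Ptprz1, a receptor phosphatase of neural cells that can bind IL-34, had 63.4 and 65.8 TPM, or 64.6 ± 1.72 TPM. Sdc1, a proteoglycan that can also bind IL-34, had 1.11 and 0.55 TPM, so its libraries lay on either side of TPM of 1.

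**Figure D3:**
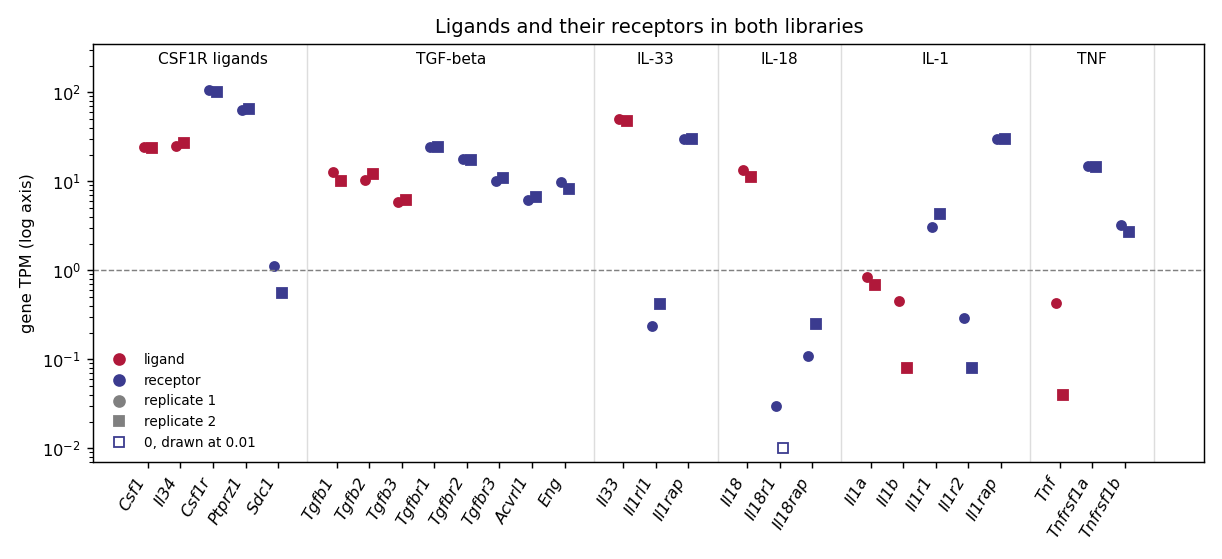
Gene TPM of the alignment-based table on a log axis for the ligands (red) and their receptors (blue), with circles for replicate 1 and squares for replicate 2, an open square for a value of 0 drawn at 0.01, and a dashed line at TPM of 1. Csf1r lies above both of its ligands, whereas Il1rl1 and both IL-18 receptor genes lie under TPM of 1, below Il33 and Il18.

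The TGF-beta ligands were all present, with Tgfb1 and Tgfb2 at about the same mean in the alignment-based table and Tgfb3 lower. Tgfb1 (chromosome 7, 25687002 to 25705077, plus strand) had 12.8 TPM from 436 counts in replicate 1 and 10.1 TPM from 381 counts in replicate 2, or 11.4 ± 1.94 TPM (SD, n = 2). Tgfb2 (chromosome 1, 186622792 to 186705989, minus strand) had 10.5 TPM from 768 counts and 12.1 TPM from 896 counts, or 11.3 ± 1.16 TPM. In these alignment-based values, Tgfb1 was the higher of this pair in replicate 1 and Tgfb2 in replicate 2. The log2 difference of Tgfb2 over Tgfb1 was -0.29 and 0.27, so they were not separate in that table. The alignment-free table gave Tgfb2 12.2 and 15.9 TPM and Tgfb1 11.5 and 10.1 TPM. There the pair was separate, with Tgfb2 the higher. Tgfb3 (chromosome 12, 86056745 to 86079041, minus strand) had 5.91 TPM from 352 counts and 6.12 TPM from 389 counts, or 6.02 ± 0.148 TPM. It lay below both others in each library, by a mean log2 difference of -0.90 ± 0.28 from Tgfb1, and Tgfb2 lay 0.90 ± 0.11 above it. Part of the Tgfb2 level was noncoding, at 18.5% and 24.1% of its TPM, and among coding transcripts Tgfb2 lay 0.55 above Tgfb3 on the log2 scale. The span of Tgfb3 overlaps over 5149 bases with that of Ttll5 on the opposite strand, which held 1114 and 1135 counts, and whether counting used strand is not given in the sources used here.

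In each TGF-beta ligand, 1 transcript led in both libraries and both tables. Tgfb1-201, which encodes the precursor of 390 codons, held 86.5 ± 1.41% (SD, n = 2) of Tgfb1 TPM from alignments and 80 ± 4.35% without. Tgfb2-201 of 414 codons held 69.9 ± 4.52% and 47.4 ± 6.36%, and Tgfb2-206 of 442 codons held 8.82 ± 0.591% and 11 ± 0.258%. The retained-intron Tgfb2-205 took 2.2% and 14.2% in the alignment-based table and 23.5% in both libraries of the alignment-free table. Tgfb3 has the single transcript Tgfb3-201 of 412 codons.

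All 5 TGF-beta receptor genes reached TPM of 1 in both libraries. Tgfbr1, the signalling kinase, had 24.6 and 24.3 TPM, and Tgfbr2, the ligand-binding kinase, had 17.9 and 17.4 TPM, so both lay above each ligand in each library. Tgfbr3, the coreceptor betaglycan that binds TGF-beta 2, had 10 and 11.1 TPM. Eng and Acvrl1, the endothelial coreceptor and kinase, had 9.85 and 8.22 TPM and 6.17 and 6.62 TPM. Of 11 genes of latency and activation, 8 reached TPM of 1 in both libraries, led by the integrin subunit Itgav at 33.5 ± 1.79 TPM (SD, n = 2), the latent binding protein Ltbp4 at 26 ± 0.679 TPM and the protease Furin at 21.1 ± 4.64 TPM. Nrros, the microglial protein that holds latent TGF-beta 1, had 6.08 and 7.24 TPM. Of 7 SMAD pathway genes, 6 reached TPM of 1 in both libraries, led by the corepressors Ski at 55.2 ± 1.89 TPM and Skil at 26.8 ± 1.82 TPM and by Smad4 at 25.9 ± 0.46 TPM.

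Among the IL-1 family, Il33 lay far above the rest. Il33 (chromosome 19, 29925114 to 29960718, plus strand), which in the brain is known from astrocytes and oligodendrocytes, had 50.2 TPM from 1478 counts in replicate 1 and 47.2 TPM from 1684 counts in replicate 2, or 48.7 ± 2.11 TPM (SD, n = 2). That placed it at percentile 90.7 and 89.5 of protein-coding genes. Il18 (chromosome 9, 50554827 to 50581840, plus strand) had 13.3 TPM from 170 counts and 11.3 TPM from 163 counts, or 12.3 ± 1.43 TPM. Il33 exceeded Il18 in both libraries, by 1.91 and 2.06 on the log2 scale, a mean of 3.95-fold. The alignment-free table placed Il33 higher, at 76.2 and 70.6 TPM, and Il18 at 13.3 and 13.7 TPM, a log2 difference of 2.43. The alignment-free count of Il33 was 1.17 and 1.15 times the alignment-based count, where the median of protein-coding genes was 1.15 in both libraries. The count gained was thus near the median gain, while the division among transcripts differed between the tables.

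The tables divided Il33 differently. Il33-202 and Il33-201 encode the same 266 codons but start at different first exons. Il33-202 held 57.2 ± 4.48% (SD, n = 2) of Il33 TPM from alignments and 16.5 ± 2.89% without, and Il33-201 held 5.96 ± 3.36% and 23.8 ± 9.85%. Il33-204, an incomplete model of 377 bases, held 6.53 ± 1.97% of the TPM from alignments and 47.6 ± 5.21% without, the latter on 119 and 134 alignment-free counts; a TPM value divides counts by length. Il33-205, which lacks the 17 codons at the printed junction and is also incomplete, held 25.5 ± 4.54% and 4.04 ± 5.71%. Summed by first exon, the distal start at 29925114 held 90.7% and 87.8% in the alignment-based table and 70.5% and 65.7% in the alignment-free table, and so led in both. The start at 29945790 held 3.58% and 8.34%, or 16.9% and 30.8% without alignment.

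The 250 bases before the starts at 29925114 and 29945790 are shown because the isoforms differ in this promoter choice. They are RefSeq promoter sequences on GRCm38.p6, plus strand, with motif matches in capitals. The motifs searched on both strands were the TATA box TATAAA, the GC box GGGCGG, the AP-1 site TGANTCA and the STAT site (TTCC, any 3 bases, GAA), which 12.4%, 32.7%, 6.75% and 3.27% of 32851 RefSeq promoters of the same length held.
Il33 distal, chr19:29924863-29925112: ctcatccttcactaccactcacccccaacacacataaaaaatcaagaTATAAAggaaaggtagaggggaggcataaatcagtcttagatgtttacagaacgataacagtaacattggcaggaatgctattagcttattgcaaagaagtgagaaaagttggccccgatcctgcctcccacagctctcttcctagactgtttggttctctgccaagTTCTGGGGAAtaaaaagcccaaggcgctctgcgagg
Il33 proximal, chr19:29945540-29945789: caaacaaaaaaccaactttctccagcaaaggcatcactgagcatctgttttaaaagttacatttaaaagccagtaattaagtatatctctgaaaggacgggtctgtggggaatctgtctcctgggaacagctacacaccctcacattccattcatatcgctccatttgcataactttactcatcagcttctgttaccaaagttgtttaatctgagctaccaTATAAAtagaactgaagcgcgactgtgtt
The distal window held TATAAA 203 bases before the start and a STAT match 36 bases before it, with 45.2% GC. The proximal window held TATAAA 29 bases before the start, with 39.6% GC, against a median of 52.4% GC over all promoters. A match is a description of the letters and not a site.

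Il18 was also divided unevenly, and on far fewer counts. Il18-204 and Il18-202 encode the same 192 codons, and Il18-203 carries the frameshifting junction and encodes 78 codons. Il18-204 held 36.6% and 65.5% of Il18 TPM from alignments and 54.3% and 32% without. Il18-202 held 39.2% and 12.8% from alignments, where the identical model Il18-201 was listed at 0, and each held 5.4% and 12.5% without alignment. Il18-203 held 24.2% and 21.8%, and 34.8% and 43% without alignment. No transcript led in both libraries and both tables, at 163 to 170 counts per library for the gene. The span of Il18 overlaps over 355 bases with the opposite-strand gene Bco2, which held 104 and 76 counts.

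**Figure D4:**
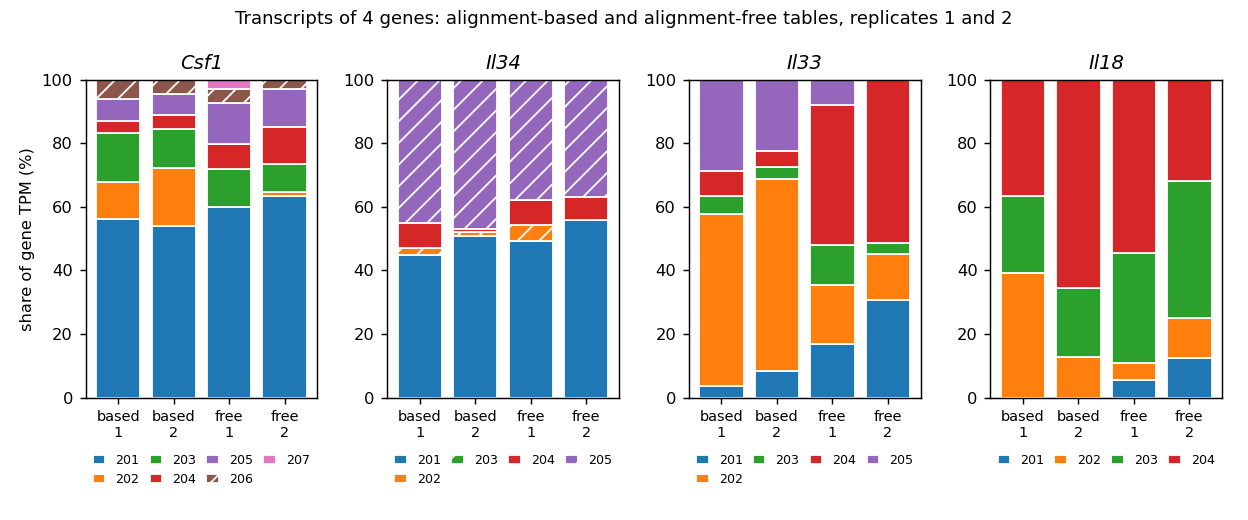
Share of gene TPM, in percent, held by each annotated transcript (numbered by its suffix) of Csf1, Il34, Il33 and Il18, with 4 bars per gene for the alignment-based and alignment-free tables of replicates 1 and 2 and hatching for noncoding transcripts. Csf1-201 leads in all 4 bars, Il34-205 holds 36.7% to 46.8%, and the leading transcript of Il33 changes with the table.

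In the alignment-based table the specific receptors of IL-33 and IL-18 lay below TPM of 1 in both libraries. Il1rl1, the IL-33 receptor ST2, had 0.24 TPM from 14 counts and 0.42 TPM from 17 counts, and Il1rap, the shared accessory chain, had 30 TPM in both libraries. Il18r1 had 1 count in replicate 1 and was listed at 0 in replicate 2, and Il18rap had 3 and 10 counts. The floor of 3 counts equals 0.115 and 0.105 CPM, so Il18r1 was under it in both libraries of that table. The alignment-free table gave more counts, 31.7 and 38.9 for Il18r1, 53.6 and 49.3 for Il18rap and 33.8 and 41.4 for Il1rl1, so detection of these receptors depended on the table. Their alignment-free TPM was 0.355 and 0.46, 1.05 and 0.993, and 0.29 and 0.879. Il18bp, the secreted IL-18 antagonist, had 5.12 and 5.19 TPM, and Sigirr, an inhibitory receptor of the family, had 1.53 and 1.39 TPM.

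The classical inflammatory cytokines were low. Il1a (chromosome 2, 129299610 to 129309972, minus strand) had 0.85 TPM from 29 counts in replicate 1 and 0.69 TPM from 25 counts in replicate 2, or 0.77 ± 0.113 TPM (SD, n = 2). Il1b (chromosome 2, 129364570 to 129371139, minus strand) had 0.45 TPM from 8 counts, with deposited credibility bounds (level not stated) of 0.291 to 1.29, and 0.08 TPM from 2 counts, with bounds of 0.069 to 0.796. Tnf (chromosome 17, 35199381 to 35202007, minus strand) had 0.43 TPM from 12 counts, with bounds of 0.251 to 0.757, and 0.04 TPM from 1 count, with bounds of 0.0103 to 0.221. Both were higher in replicate 1, but the ratio of replicate 1 over replicate 2 had wide exact 95% intervals, 4.37 (0.873 to 42.3) for Il1b and 13.1 (1.94 to 561) for Tnf. These 2 genes were below the count minimum of the test between libraries. Without that minimum, the exact binomial test gave adjusted p = 0.343 for Il1b and 0.0248 for Tnf.

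Il1a lay above Il1b in both libraries, by 0.79 and 2.13 on the log2 scale with a pseudocount of 0.1 TPM. Il1b rested on 8 and 2 counts. In replicate 1 the credibility bounds of Il1a (0.56 to 1.16 TPM) lay within those of Il1b (0.291 to 1.29 TPM). Il18 lay 4.61 and 5.98 above Il1b on the same scale, and caspase-1 cleaves both proteins. Il1b and Tnf were not separate, at 0.265 ± 0.262 and 0.235 ± 0.276 TPM (SD, n = 2). Their depth gives little on transcripts, since all of Tnf in replicate 2 was 1 count. The single transcript Il1a-201 of 270 codons held all counts of Il1a.

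The signalling receptors for these cytokines had more TPM than the ligands in both libraries, and the decoy receptor did not. Il1r1, the signalling IL-1 receptor, had 3.1 and 4.32 TPM, and the decoy receptor Il1r2 had 0.29 and 0.08 TPM. Tnfrsf1a, which encodes TNFR1, had 14.7 and 14.5 TPM, and Tnfrsf1b, which encodes TNFR2, had 3.25 and 2.71 TPM. The antagonist Il1rn had 2 and 6 counts. Of 11 inflammasome and maturation genes, 8 reached TPM of 1 in both libraries, with a list median of 2.52 ± 0.0636 TPM (SD, n = 2). They were led by Adam17, the TNF sheddase, at 10.5 ± 2.34 TPM, the pore-forming Gsdmd at 6.79 ± 0.134 TPM and the ATP-gated channel P2rx7 at 6.64 ± 1.46 TPM, whereas Casp1 had 1.46 and 1.59 TPM and Nlrp3 1.92 and 1.41 TPM. All 18 genes of MyD88 and NF-kB signalling reached TPM of 1 in both libraries, with a median of 9.04 ± 0.198 TPM and Irak1, Chuk and Ikbkb highest at 32.4, 24.5 and 23.8 TPM. Of 10 inflammatory target genes, 6 reached TPM of 1 in both libraries, led by Vcam1 at 11.7 ± 0.742, Ccl3 at 8.51 ± 1.19 and Ptgs2 at 6.48 ± 2.05 TPM, while Il6 had 0 and 1 count.

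Between the libraries, 1 of the 8 tested cytokines differed beyond counting error. A conditional binomial test (exact and two-sided, p-values adjusted over 16971 genes by Benjamini-Hochberg) called 18.0% of all genes and 1 of the 8 at adjusted p below 0.05. More than 2-fold apart were 2.00% of all genes tested and 0 of the 8. Tgfb1 was the called gene, with a scaled ratio of replicate 1 over replicate 2 of 1.25 (95% interval 1.09 to 1.44, exact test, adjusted p = 0.0127). The call depended on the scaling. Tgfb1 was still called with DESeq2 size factors, total counts and alignment-free counts, at log2 ratios of replicate 2 over replicate 1 of -0.30, -0.33 and -0.28. Spike-in totals moved the median log2 ratio of all genes to 0.27. They gave Tgfb1 a log2 ratio of -0.06 with adjusted p = 0.692 in the exact test. The other 7 had log2 ratios of replicate 2 over replicate 1 from -0.34 for Il1a to 0.09 for Tgfb2, with adjusted p in the exact test from 0.307 to 0.986.

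**Figure D5:**
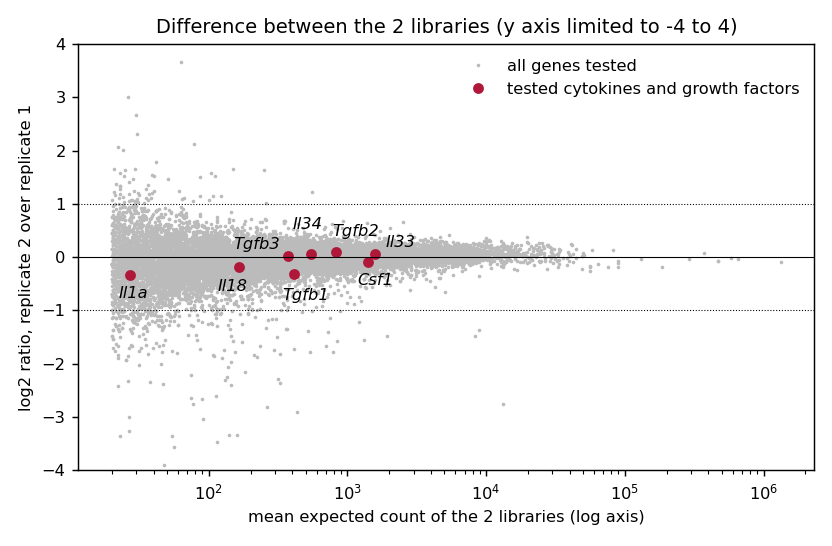
Log2 ratio of replicate 2 over replicate 1 (scaled expected counts, y axis limited to -4 to 4) against the mean expected count on a log axis, for all genes tested (grey) and the 8 tested cytokines and growth factors (red), with dotted lines at 2-fold. All 8 lie within 2-fold, between -0.34 for Il1a and 0.09 for Tgfb2.

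Latency genes and markers of several cell types also differed between the libraries, in both directions. Of 9 tested latency and activation genes, 6 were called, all of them higher in replicate 1 (with spike-in scaling, 1 was higher in replicate 1 and 3 in replicate 2), among them Ltbp3 with a log2 ratio of replicate 2 over replicate 1 of -0.41, Lrrc32 with -0.81 and Ltbp1 with -0.42. Of the markers, 3 of 4 endothelial, 2 of 3 mural, 2 of 4 meningeal fibroblast, 6 of 6 choroid plexus and 7 of 7 striatal genes were called and all of those were higher in replicate 1. With spike-in scaling, all 6 choroid plexus, all 7 striatal and 2 meningeal genes were still called higher there, but 0 endothelial and 1 mural gene were, and 1 endothelial, 1 mural and 1 meningeal gene were called higher in replicate 2. With alignment-free counts, 1 of the 4 endothelial genes was called. Higher in replicate 2 were 4 of 5 neuronal markers and 6 of 8 markers of hippocampal subfields, with summed TPM of 1825 and 2119 and of 279 and 328. With spike-in scaling all 5 and all 8 were, where 58.8% of all genes were called and their median log2 ratio was 0.27. Summed marker TPM in replicates 1 and 2 was 67.9 and 58.4 for endothelium, 69.9 and 63.5 for mural cells and 42.4 and 38.4 for meningeal fibroblasts. In homeostatic microglia 2 of 10 markers were called, both higher in replicate 1, a share near the 18.0% of all genes, with summed TPM of 457 and 442. With spike-in scaling 7 were called higher in replicate 2 and 0 in replicate 1, where 58.8% of all genes were called. Their median log2 ratio went from -0.11 to 0.16, while that of all genes moved to 0.27. Of 12 disease-associated microglial genes, 3 were called higher in replicate 1 and 1 in replicate 2. With spike-in scaling 1 of the 12 was called higher in replicate 1 and 8 in replicate 2. Of 2 tested border macrophage genes, 1 was called higher in replicate 1, and with spike-in scaling 0 were called. Of 6 astrocyte markers 1 was called, and of 3 oligodendrocyte precursor markers 1, both higher in replicate 1. Of 5 oligodendrocyte markers 0 were called. With spike-in scaling, 6 astrocyte, 2 precursor and 5 oligodendrocyte markers were called, all higher in replicate 2. No marker of these lists was at 0 in both libraries. Their part in the Tgfb1 difference was not tested.

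Some receptors differed too. Csf1r was called higher in replicate 1 by a log2 ratio of -0.09 at 6608 and 6786 counts (exact binomial adjusted p = 0.00319), but spike-in scaling turned this to 0.18. Tgfbr3 was called higher in replicate 1 by -0.28 (exact binomial adjusted p = 0.000704), with -0.02 under spike-in scaling, and its TPM was the higher in replicate 2. Il1r1 was called higher in replicate 2, by 0.37 (exact binomial adjusted p = 0.0127), and by 0.63 with spike-in scaling.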

How the data were processed

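Ribosomal RNA-depleted total RNA (300 ng per library, ERCC spike-ins, a directional kit, per the labels) of 2 libraries was quantified by the authors on mm10 with GENCODE M21, per the deposited notes. The programs used, and whether counting used strand, are not given in the sources. The alignment-based gene and transcript tables hold deposited expected counts, TPM, FPKM and posterior mean values, and a percent column for each transcript's share of its gene, per the file headers. The alignment-free table holds the authors' estimated counts and TPM per transcript, which were summed per gene here. Credibility bounds of TPM, treated as a score, were deposited by the authors with no stated level, per the file headers. All other intervals are exact 95% ones that cover counting error only.

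Expected counts were rounded and scaled by TMM (edgeR 4.0.16, R 4.3.3). With 1 library against 1, edgeR's quasi-likelihood test has no residual degrees of freedom, so the libraries were compared by an exact conditional binomial test (two-sided, by doubling the smaller tail, Benjamini-Hochberg) over 16971 genes whose mean expected count reached 20. Log2 ratios used a prior count of 0.5, and level contrasts a pseudocount of 0.1 TPM. Fits with 96 spike-ins, phiX and 26248 numbered entries (6 and 5 counts) left these out. The test was tested on simulated counts: of 200 genes made 4-fold apart, 99.5% were called, and 0.0537% of unchanged genes, over 16971 genes with counting error alone. The text names all 10 genes, their receptors, the 3 highest members of each other list at TPM of 1 in both libraries, and transcripts with at least 10% of gene TPM in both libraries of either table. Nrros, Casp1, Nlrp3, Il6, Ltbp3, Lrrc32, Ltbp1, Il1rn, Lif, Ifng, Il2, Il4, Il10, Il17a, Ttll5 and Bco2 were named beyond that rule, chosen after their values were seen, as were the transcripts with smaller shares. Promoters were RefSeq entries for 8 of the 10 genes, and Il34 and Tgfb3 had none. Members and lists were chosen with earlier results of these data known. Alternatives used DESeq2 1.42.0 size factors, other scalings, thresholds and tables. Python 3.11.15 with numpy 2.4.6, pandas 2.3.3, scipy 1.17.1 and matplotlib 3.10.9 was used for the rest.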

Additional observations from a re-analysis of the deposited data

How the results depend on the processing

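The count of 7 genes at TPM of 1 or more held under the other tables and thresholds, except that 8 reached a threshold of 0.5. Spike-in scaling called 5 of the 8 tested genes at adjusted p below 0.05 in the exact test, where it called 58.8% of all genes, and no count filter called 2 genes and put 2 more than 2-fold apart, Il1b and Tnf being tested only there. Under spike-in scaling the log2 ratio of replicate 2 over replicate 1 became 0.18 for Csf1 and 0.08 for Il18. It was -0.05 for Tgfb3 with alignment-free counts and -0.09 for Il33 as a TPM ratio. The log2 difference of Csf1 over Il34 was 0.72 with coding transcripts and 0.15 with counts per length, both added after seeing the data. Tgfb2 over Tgfb1 had a mean log2 difference of -0.01 in alignment-based TPM and 0.37 alignment-free. Tgfb2 over Tgfb3 was 1.03 with posterior mean TPM, 1.23 alignment-free, 0.55 with coding transcripts and 0.56 with counts per length. Il33 over Il18 was 2.43 alignment-free and 1.71 with counts per length. Il18 over Il1b was 4.10 and 3.41 with pseudocounts of 0.5 and 1, and 4.26 with posterior mean TPM. Il1a over Il1b was 0.50 with a pseudocount of 1 and 0.43 with posterior mean TPM. Il1b over Tnf was 0.90 with posterior mean TPM, 0.59 alignment-free and -0.10 with coding transcripts. Apart from the alternatives' own construction, the cause was not tested. At 1 to 12 counts, depth limits Il1b and Tnf. No paired analysis was possible because there is 1 group.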

Other observations

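Most other cytokines were not detected. Of a further 24 cytokine genes, 13 had 0 counts in both libraries, among them Ifng, Il2, Il4, Il10 and Il17a, which at 3 counts allows up to 0.115 and 0.105 CPM. TPM of 1 in both libraries was reached by 2 of them. Il16, whose precursor occurs in neurons and lymphocytes, had 18 and 23 TPM, and Il15, a growth factor of lymphocytes, had 1.49 and 1.7 TPM. Il16 was higher in replicate 2 by 0.37 on the log2 scale (exact binomial adjusted p = 1.64e-08), and it was the called gene among the 3 of this list that were tested. Lif, a cytokine of the IL-6 family, had 2.1 TPM in replicate 1 and 0.9 TPM in replicate 2, with an adjusted p of 0.0982 in the same exact test.

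The promoters of the 8 genes with a RefSeq entry differed in composition. The 250 bases before the start held 75.2% GC and 5 GC boxes for Tgfb1 and 56.4% GC and 2 GC boxes for Csf1, with no TATAAA in either. TATAAA lay 31 bases before the start of Tgfb2, 32 before that of Il1a, 31 before that of Il1b and 29 before that of Tnf. An AP-1 match lay 12 bases before the start of Il1a, and a STAT match lay 46 bases before that of Il18. Read on the opposite strand, Il18 also held TATAAA 175 bases before its start, and Tnf held a GC box 49 bases before its start. These are descriptions of the letters in RefSeq promoters on GRCm38.p6, and 12.4% of all 32851 hold TATAAA on either strand.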
